A study of Arabidopsis thaliana with 6 samples.

Results

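The data concern 52 genes of plant cell wall enzymes and wall-loosening proteins, measured in above-ground tissue (labelled aerial part) of Arabidopsis plants aged 30 days, either Col-0 wild type or epiF3. A gene was taken if a probe set of the array named it alone and its symbol began with EXPA, EXPB, EXLA, EXLB, XTH, GH9, CSL, CESA or PME. The rule uses symbols alone, and it was written with earlier results of these data known. Of 13356 genes that a probe set named alone, 52 met the rule. They comprised 10 EXPA, 4 EXPB, 3 EXLA and 1 EXLB genes, 9 XTH, 15 GH9 and 7 CSL genes, and 3 genes whose symbol begins with PME. No probe set named a CESA gene, so the catalytic subunits of cellulose synthase are not analysed here. Each of the 52 genes had 1 annotated probe set, so no choice among probe sets was needed. The annotation lists 14016 probe sets, fewer than the 22746 tested. Probe sets without a gene name could not enter, nor could those naming several genes. The members are thus the named part of each family, and statements on a family cover its members only. PMEAMT met the rule by its letters alone: it encodes phosphoethanolamine N-methyltransferase, an enzyme of phospholipid synthesis, and is no wall enzyme.

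Each group held 3 Affymetrix arrays, and each array carried RNA of a sample that its title calls a biological replicate. Both groups were of the Col-0 ecotype and were grown in Metro-Mix under the same light and temperature, and their labels name no treatment. The titles call the test group epiF3, while the description of the same samples names albino plants of an msh1 mutant. How the 2 names relate, and which alleles the epiF3 plants carried, is not stated in the labels. They do not say either whether the plants of a group were siblings or came from separate families, and p-values measure the spread among these samples only.

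Plant cells enlarge when the wall, a network of cellulose fibres held in xyloglucan, other hemicelluloses and pectin, yields to turgor. Alpha- and beta-expansins (EXPA, EXPB) loosen that network without cutting it, and expansin-like proteins (EXLA, EXLB) share their fold. Xyloglucan endotransglucosylase/hydrolases (XTH) cut and rejoin xyloglucan, endoglucanases of glycosyl hydrolase family GH9 cut beta-1,4-glucans, cellulose synthase-like proteins (CSL) build hemicellulose backbones in the Golgi, and pectin methylesterases (PME) remove methyl groups from pectin. Many members of these large families are known for work in a single organ, such as root hairs.

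Values are log2 signals as the authors deposited them, and the change of a gene is the epiF3 mean minus the wild-type mean on that scale. Brightness depends on the probes, so the signals of different probe sets do not rank transcript levels between genes. The brightest probe set of a family served only to choose a gene to describe. A value in the lowest 25% of its array is called near the floor, where real differences are compressed. Groups were compared with limma over 22746 probe sets with Benjamini-Hochberg adjustment, and a gene was called at an adjusted p under 0.05. Array 3 of epiF3 stood apart before any gene was considered. Its hybridization controls, bacterial and phage transcripts added to the hybridization, averaged 10.5, against 8.19 and 8.36 on the other epiF3 arrays and 7.11 to 8.21 in wild type. Its correlations with all other arrays were 0.961 to 0.982, and limma gave it the lowest array weight (0.305, against 0.712 to 1.86). Its median over all probe sets tested was 4.08, against 4.25 to 4.32 on the other arrays, and the main fit used the values uncentred. Values without this array are given for EXPA8, EXLA2, XTH32, GH9B8, CSLA01 and PME61, and for some of the other genes. Of the green-tissue markers listed, 2 were measured by name. LHCB4.1, an antenna protein, averaged 12.11 ± 0.11 in wild type and 11.85 ± 0.13 in epiF3 (SD, n = 3 each). Its change was -0.26 (adjusted p = 0.542 in limma), with all epiF3 arrays below all wild-type arrays. PRK, an enzyme of carbon fixation, averaged 11.30 ± 0.45 in wild type and 11.08 ± 0.20 in epiF3. PRK changed by -0.22 (adjusted p = 0.754 in limma), with overlapping groups. Both groups thus held these 2 transcripts of green tissue. Of markers of other organs, the anther gene AMS was near the floor on all 6 arrays (2.23 ± 0.075 in wild type and 2.33 ± 0.03 in epiF3). The root markers PYK10 and EXPA18, described below, were near the floor on 0 arrays, and the root marker EXPA7 on 3.

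Transcript signals of EXPA8 fell in epiF3, and no other member passed the test in either direction. Of 52 members, 1 was called lower and 0 higher, beside 0.33% and 0.268% of all probe sets tested and 0.598% in either direction. With counts this small the members' share cannot be read as differing from that of the whole array. At an unadjusted limma p under 0.05 there were 9 members, or 17.3%, against 10.9% of all probe sets. Arrays of the 2 groups did not overlap for 12 members in the higher and 3 in the lower direction, together 28.8% of members, against 16.9% of all probe sets (9.75% higher and 7.11% lower). Of these 15 genes, 3 (EXPA21, GH9B6 and GH9C1) were near the floor on all 6 arrays.

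EXPA8 (AT2G40610) encodes an alpha-expansin. Its signal was 6.28, 7.13 and 7.53 on wild-type arrays 1 to 3 and 5.19, 4.72 and 4.34 on epiF3 arrays 1 to 3. All 3 epiF3 arrays lay below the lowest wild-type array, and none of the 6 values was near the floor. The means were 6.98 ± 0.64 in wild type and 4.75 ± 0.43 in epiF3 (SD, n = 3 each), and the change was -2.23 with a standard error of 0.34 and a 95% interval of -3.01 to -1.45. That is a signal 4.69-fold lower in epiF3, with an adjusted p of 0.0384 in limma. The call was lost with no moderation of variances (adjusted p = 0.409) and with the replicate block (adjusted p = 0.101 in limma). It was also lost when any epiF3 array or wild-type array 2 was left out, with adjusted limma p of 0.068 without epiF3 array 1, 0.187 without array 2, 0.15 without array 3 and 0.138 without wild-type array 2. The change itself stayed between -2.58 and -1.95 in the 6 fits with 1 array left out, and was -2.02 without epiF3 array 3. With the hybridization control covariate the change was -2.00 (adjusted p = 0.346 in limma). The part of these controls in the result was not tested further. In RNA of whole tissue, fewer cells that express EXPA8 and less EXPA8 transcript per cell cannot be told apart. The 3 wild-type arrays ranged from 6.28 to 7.53.

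**Figure D1:**
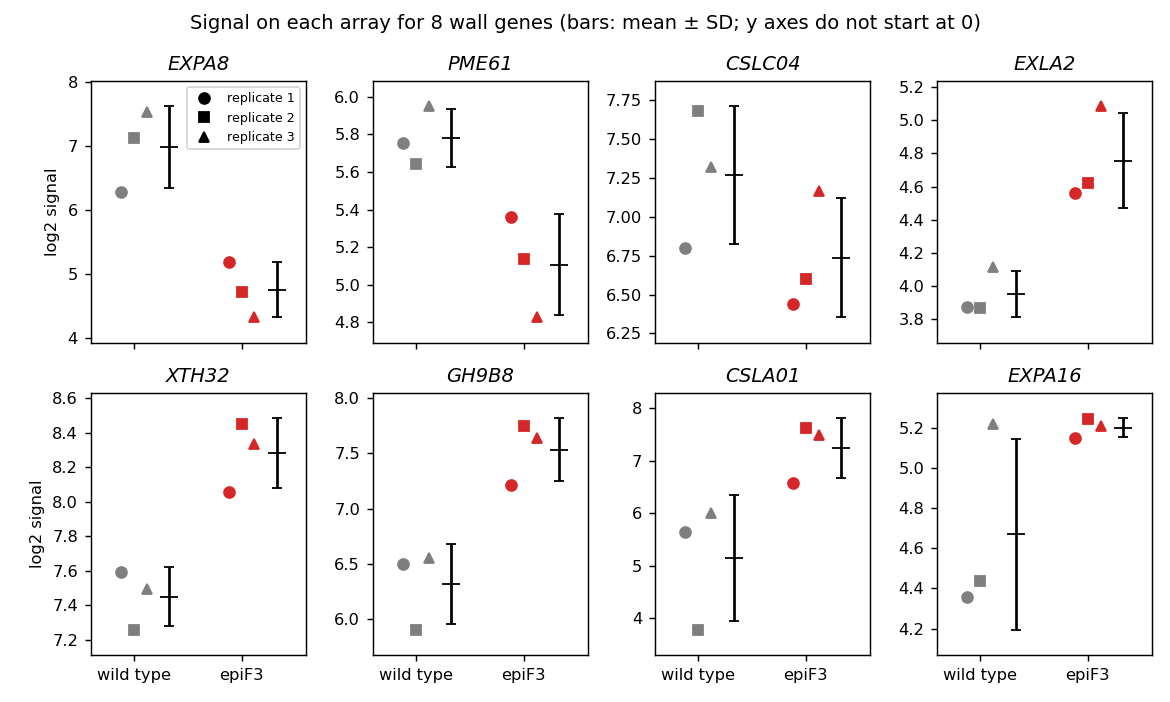
Log2 signal of 8 genes on each array, with wild type in grey and epiF3 in red, symbols for replicates 1 to 3, and bars for the mean ± SD (n = 3). EXPA8 and PME61 lie lower on all epiF3 arrays, EXLA2, XTH32, GH9B8 and CSLA01 lie higher, and the groups overlap for CSLC04 and EXPA16. Only EXPA8 passed the adjusted threshold.

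The other 9 EXPA members had small changes, between -0.19 and 0.53, and 7 of them were positive. EXPA16 had the largest of these, with a signal of 4.36, 4.44 and 5.22 on wild-type arrays 1 to 3 and 5.15, 5.24 and 5.21 on epiF3 arrays 1 to 3. Wild-type array 3 lay among the epiF3 arrays and the groups overlapped, while the epiF3 arrays differed little from each other (SD 0.0471, against 0.48 in wild type). The change of 0.53 had a 95% interval of 0.0047 to 1.05 and an adjusted p of 0.454 in limma. Without wild-type array 3 it was 0.80, and limma then called it (adjusted p = 0.0421), in a fit that called 1.77% of all probe sets. EXPA4, described for its bright probe set, was at 7.70, 7.10 and 7.06 on wild-type arrays 1 to 3 and 7.60, 7.66 and 7.32 on epiF3 arrays 1 to 3. Its groups overlapped, and the change was 0.24 (95% interval -0.22 to 0.70). EXPA15 averaged 5.99 ± 0.37 in wild type and 5.80 ± 0.30 in epiF3 (SD, n = 3 each), with a change of -0.19, or -0.024 without epiF3 array 3.

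The median change of the 10 EXPA genes was 0.23, between 0.13 when the hybridization controls entered as a covariate and 0.32 without epiF3 array 1. The all-array median change was 0.030, or 0.10 after median centring. EXPA7 and EXPA18 are known from root hairs and serve as markers of root tissue here. EXPA7 was near the floor on 3 of 6 arrays, with means of 2.29 ± 0.11 in wild type and 2.52 ± 0.18 in epiF3 (SD, n = 3 each), and EXPA18 averaged 2.96 ± 0.094 in wild type and 3.19 ± 0.32 in epiF3. PYK10, a beta-glucosidase of roots, averaged 4.16 ± 0.33 in wild type and 4.17 ± 0.35 in epiF3. None of these 3 root markers was called, and their changes were 0.016 to 0.23. EXPA21 and EXPA24 were near the floor on all 6 arrays, and EXPA9 and EXPA20 had changes of 0.28 and 0.35 with overlapping groups. Without epiF3 array 3 the change of EXPA20 was 0.14.

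The 4 EXPB members were split, with 2 positive and 2 negative changes and no call. Their median was 0.14, or 0.048 without epiF3 array 2. EXPB3, described for its bright probe set, was at 7.34, 6.38 and 6.77 on wild-type arrays 1 to 3 and 6.94, 7.33 and 7.09 on epiF3 arrays 1 to 3. The groups overlapped, since wild-type array 1 was as high as any epiF3 array, and the change was 0.29 (95% interval -0.27 to 0.86). It was 0.55 without wild-type array 1 and 0.068 without wild-type array 2. EXPB2 had the smallest p of this family. Its signal was 2.70, 2.86 and 2.76 on wild-type arrays 1 to 3 and 2.93, 2.93 and 3.39 on epiF3 arrays 1 to 3, so all epiF3 arrays lay higher, array 3 farthest. The change was 0.31 with an adjusted p of 0.547 in limma, and 0.16 without epiF3 array 3. EXPB1 averaged 4.19 ± 0.29 in wild type and 3.89 ± 0.20 in epiF3 (SD, n = 3 each), a change of -0.30, and EXPB5 was near the floor on 3 arrays.

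Among expansin-like genes EXLA2 stood highest in epiF3 relative to wild type, without passing the threshold. EXLA2 (AT4G38400), known from work on resistance to necrotrophic fungi, had a signal of 3.87, 3.87 and 4.11 on wild-type arrays 1 to 3 and 4.56, 4.62 and 5.08 on epiF3 arrays 1 to 3. The groups did not overlap and the wild-type arrays lay within 0.25 of each other. The change was 0.80 with a standard error of 0.17, a 95% interval of 0.40 to 1.203 and an adjusted p of 0.11 in limma. It was 0.64 without epiF3 array 3 and 0.49 with the hybridization control covariate (adjusted p = 0.46 in limma). Only the limma fit with array weights called EXLA2 (change 0.72, adjusted p = 0.0358), with 1.97% of all probe sets called. Its relatives had changes of the opposite sign. EXLA1, described for its bright probe set, was at 5.23, 6.14 and 5.94 on wild-type arrays 1 to 3. On epiF3 arrays 1 to 3 it was at 5.53, 5.99 and 5.01, and the groups overlapped. EXLA1 averaged 5.77 ± 0.48 in wild type and 5.51 ± 0.49 in epiF3, a change of -0.26 (adjusted p = 0.781 in limma). The change was 0.13 with the hybridization control covariate and -0.01 without epiF3 array 3. EXLA3 averaged 2.66 ± 0.29 in wild type and 2.34 ± 0.088 in epiF3 (SD, n = 3 each), a change of -0.32, and was near the floor on 3 arrays. Both intervals include 0, at -0.97 to 0.45 for EXLA1 and -0.71 to 0.064 for EXLA3. EXLA1 and EXLA3 are adjacent genes in the TAIR10.1 gene order, and EXLA2 lies on another chromosome.

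The 1 gene of the EXLB family under its own symbol, EXLB1, had a signal of 5.94, 5.56 and 5.76 on wild-type arrays 1 to 3 and 6.34, 6.16 and 5.82 on epiF3 arrays 1 to 3. Array 3 of epiF3 lay among the wild-type arrays and the groups overlapped. Its change was 0.35 with a 95% interval of -0.05 to 0.76 (adjusted p = 0.532 in limma), and 0.50 without epiF3 array 3. Over all 18 members of the expansin families, 11 changes were positive and 7 negative, with a median of 0.23.

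**Figure D2:**
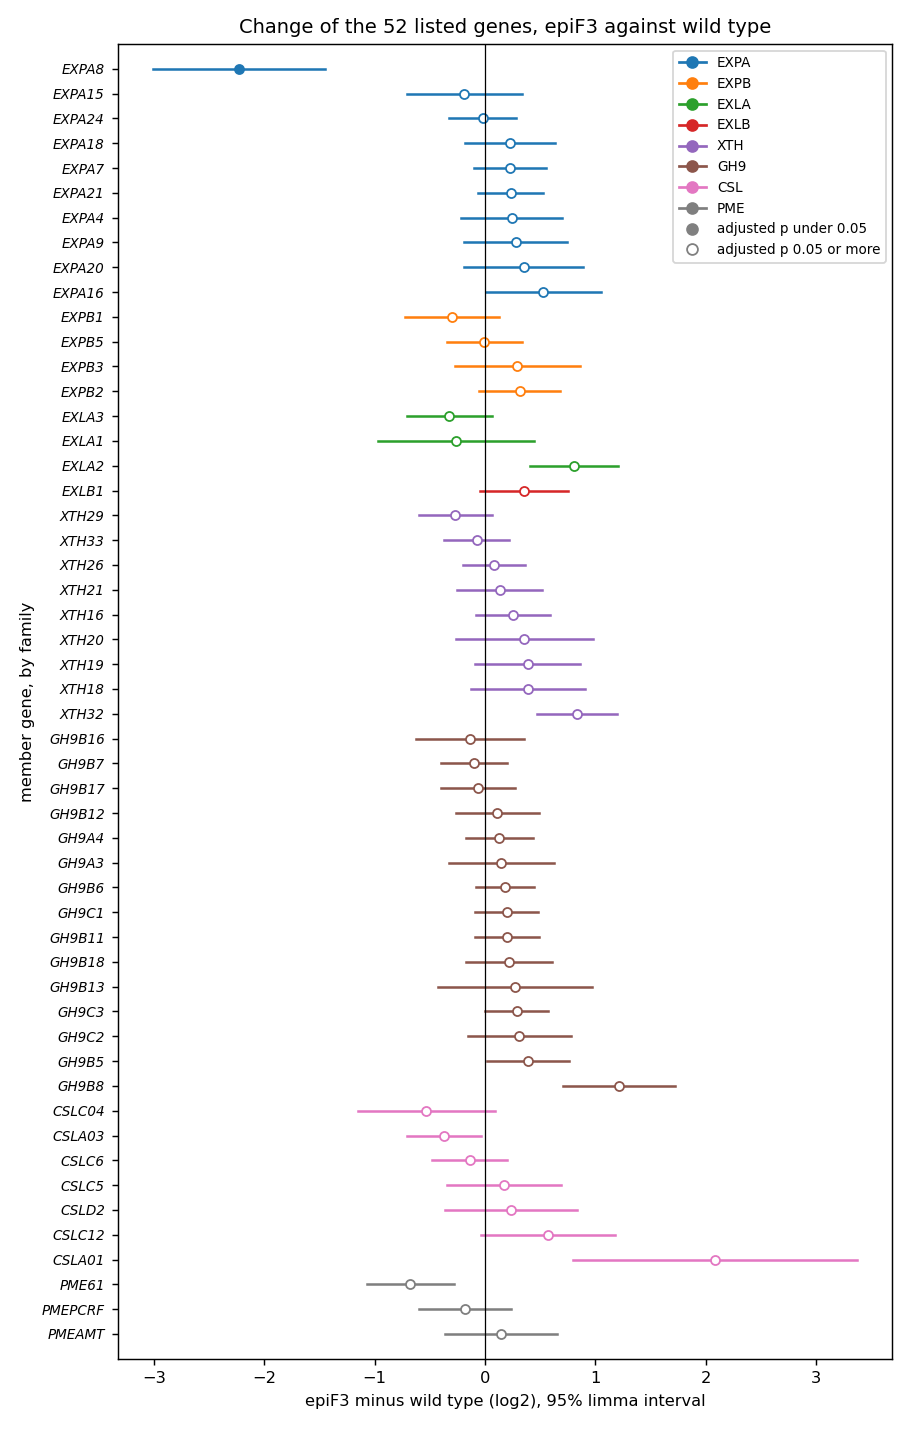
Change of each of the 52 genes on the log2 scale (epiF3 minus wild type), ordered by family, with 95% limma intervals. The filled point marks EXPA8, the 1 gene with an adjusted p under 0.05; most other intervals include 0, and those of PME61, CSLA03, EXLA2, XTH32, GH9B8, GH9B5, EXPA16 and CSLA01 do not.

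Of the 9 XTH genes none was called, 7 changes were positive, and the median was 0.25. XTH32 (AT2G36870), of the XTH subgroup known for xyloglucan hydrolysis, had a signal of 7.59, 7.26 and 7.49 on wild-type arrays 1 to 3 and 8.06, 8.45 and 8.33 on epiF3 arrays 1 to 3. All epiF3 arrays lay above all wild-type arrays and the distance between the groups exceeded the range within either. The change was 0.83 with a standard error of 0.16 and a 95% interval of 0.47 to 1.19, or 1.78-fold, and its adjusted p was 0.0709 in limma. The change was 0.81 without epiF3 array 3 and 0.74 to 0.94 with any 1 array left out. With array weights limma called XTH32 (change 0.87, adjusted p = 0.0325), in a fit with 1.97% of all probe sets called. No other fit called it, and with the hybridization control covariate the change was 0.74 (adjusted p = 0.442 in limma).

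XTH16 was at 5.43, 5.45 and 5.39 on wild-type arrays 1 to 3 and 5.67, 5.90 and 5.46 on epiF3 arrays 1 to 3. Its 3 wild-type arrays were nearly equal and all epiF3 arrays lay higher, array 3 by very little, and the change was 0.25 (95% interval -0.084 to 0.59). XTH18 and XTH19, adjacent genes, had changes of 0.39 and 0.39, with adjusted limma p of 0.584 and 0.563. XTH19 averaged 2.66 ± 0.11 in wild type and 3.05 ± 0.41 in epiF3, and its epiF3 mean rests on array 2 at 3.52 beside 2.81 and 2.82. XTH18 averaged 2.73 ± 0.26 in wild type and 3.13 ± 0.39 in epiF3 (SD, n = 3 each), with its highest value on array 3 of epiF3. Without epiF3 array 2 the changes were 0.37 for XTH18 and 0.15 for XTH19, and without array 3 they were 0.21 and 0.50. Neighbouring paralogs can share probes, and whether these probe sets tell the genes apart was not tested.

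XTH20 was near the floor on all wild-type arrays, and its signal was 2.04, 1.87 and 1.99 on wild-type arrays 1 to 3 and 2.31, 1.74 and 2.91 on epiF3 arrays 1 to 3. Its epiF3 arrays spread on both sides of wild type, and the change of 0.36 was 0.061 without epiF3 array 3. XTH21 and XTH26, the latter known from root hairs, were near the floor on all 6 arrays. XTH29 had a change of -0.27 and was near the floor on 4 arrays, and XTH33, an XTH held at the plasma membrane, averaged 2.85 ± 0.074 in wild type and 2.77 ± 0.13 in epiF3 (SD, n = 3 each). The XTH median was 0.075 without epiF3 array 3, so that array carries much of it.

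The 15 GH9 endoglucanase genes had 12 positive changes, a median of 0.20 and no call. GH9B8 (AT2G32990), a secreted endoglucanase of class B, had a signal of 6.50, 5.91 and 6.55 on wild-type arrays 1 to 3 and 7.21, 7.75 and 7.64 on epiF3 arrays 1 to 3. The groups did not overlap, and the lowest epiF3 array lay 0.66 above the highest wild-type array. The change was 1.21 with a standard error of 0.22 and a 95% interval of 0.71 to 1.72, or 2.32-fold, with an adjusted p of 0.0652 in limma. It stayed between 1.01 and 1.37 with any 1 array left out and was 1.16 without epiF3 array 3. With array weights limma called it (change 1.30, adjusted p = 0.0289), and no other fit did. With the hybridization control covariate the change was 0.998 (adjusted p = 0.452 in limma). With the replicate block the adjusted p was 0.137 in limma.

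GH9B7, described for its bright probe set, was at 7.89, 7.87 and 8.14 on wild-type arrays 1 to 3 and 7.89, 7.90 and 7.80 on epiF3 arrays 1 to 3. The groups overlapped, and the change was -0.10 (95% interval -0.40 to 0.19). GH9C2, of the class with a carbohydrate-binding module, averaged 7.26 ± 0.31 in wild type and 7.57 ± 0.27 in epiF3, a change of 0.31. GH9B13 averaged 6.29 ± 0.51 in wild type and 6.56 ± 0.44 in epiF3 (SD, n = 3 each), and its change of 0.27 was -0.020 without wild-type array 2. The change of GH9B8 was thus larger than that of each other GH9 gene, and the difference between genes was not tested.

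Of the 15 GH9 genes, 4 (26.7%) were near the floor on all 6 arrays, against 16.2% of all probe sets and 19.6% of those that name 1 gene. These were GH9A4, GH9B6, GH9B11 and GH9C1, while GH9B12, GH9B16, GH9B17 and GH9C3 were near the floor on 4 arrays. GH9B5 was near the floor on 1 array, with a signal of 2.51, 2.40 and 2.28 on wild-type arrays 1 to 3 and 2.67, 3.08 and 2.61 on epiF3 arrays 1 to 3. All epiF3 arrays lay higher, and the change was 0.39 (95% interval 0.019 to 0.76, adjusted p = 0.429 in limma). GH9C3 had a change of 0.29 (adjusted p = 0.461 in limma) and arrays that did not overlap. GH9A3 (also named KOR3), of the membrane-bound class to which KORRIGAN belongs, averaged 2.91 ± 0.17 in wild type and 3.06 ± 0.38 in epiF3 (SD, n = 3 each). GH9B16, GH9B17 and GH9B18 are adjacent genes, with changes of -0.13, -0.062 and 0.21, and so are GH9B11 and GH9B12 (0.20 and 0.11).

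Small positive changes near the floor were common on the whole array. Of 3676 probe sets near the floor on all 6 arrays, 2818 changes were positive and the median was 0.092. For the 8 such members the corresponding figures were 7 positive and a median of 0.16. The per-array median of these 3676 probe sets was 2.12 on epiF3 array 3 and 1.90 to 1.97 on the other arrays, so this array alone was higher at the floor. Without this array the changes were 0.17 for EXPA21, 0.049 for EXPA24, 0.067 for GH9A4 and 0.16 for GH9B11. They were 0.19 for GH9B6, 0.20 for GH9C1, 0.075 for XTH26 and -0.015 for XTH21. With all arrays, the 44 members above the floor on at least 1 array had a median of 0.23. The part of epiF3 array 3 in the small positive changes of dim members was not tested beyond leaving it out.

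The cellulose synthase-like genes held the largest positive change of all members. CSLA01 (AT4G16590), of the family of mannan and glucomannan synthases, had a signal of 5.64, 3.79 and 6.01 on wild-type arrays 1 to 3 and 6.58, 7.62 and 7.49 on epiF3 arrays 1 to 3. No epiF3 array overlapped with wild type, but wild-type array 2 lay far below the other wild-type arrays. The means were 5.15 ± 1.19 in wild type and 7.23 ± 0.57 in epiF3 (SD, n = 3 each), and the change was 2.08 with a standard error of 0.56 and a 95% interval of 0.80 to 3.37. The adjusted p was 0.19 in limma, so a change of 4.24-fold, close in size to that of EXPA8, did not pass. Without wild-type array 2 the change was 1.41, and without epiF3 array 3 it was 1.96.

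CSLA03, of the same subfamily, had a change of the opposite sign. Its signal was 5.27, 5.43 and 5.62 on wild-type arrays 1 to 3 and 5.22, 5.01 and 4.96 on epiF3 arrays 1 to 3. All epiF3 arrays lay below wild type, though array 1 by little, and the change was -0.38 (95% interval -0.71 to -0.041, adjusted p = 0.393 in limma). Whether CSLA01 and CSLA03 differ in their response was not tested.

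The CSLC genes, of the family that makes the glucan backbone of xyloglucan, had changes of both signs. CSLC04, described for its bright probe set, was at 6.80, 7.68 and 7.32 on wild-type arrays 1 to 3 and 6.44, 6.60 and 7.17 on epiF3 arrays 1 to 3. Array 3 of epiF3 lay within the wild-type range, and the change of -0.53 (95% interval -1.15 to 0.086) was -0.75 without that array. CSLC12 was near the floor on 4 arrays, at 2.19, 2.25 and 2.07 on wild-type arrays 1 to 3 and 2.25, 2.61 and 3.35 on epiF3 arrays 1 to 3, and its change of 0.57 was 0.26 without epiF3 array 3, so that array carries more than the other arrays together. CSLC5 and CSLC6 had changes of 0.17 and -0.14, with intervals of -0.34 to 0.69 and -0.48 to 0.20. With 1 array left out they ran from 0.032 to 0.41 for CSLC5 and from -0.26 to -0.06 for CSLC6. CSLD2, known for root hair growth, averaged 5.59 ± 0.45 in wild type and 5.83 ± 0.34 in epiF3 (SD, n = 3 each), and its change of 0.24 was -0.11 with the hybridization control covariate.

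Of the pectin methylesterases among the members, PME61 (AT3G59010, also named PME35) was lower on every epiF3 array. Its signal was 5.76, 5.64 and 5.95 on wild-type arrays 1 to 3 and 5.36, 5.14 and 4.82 on epiF3 arrays 1 to 3. The highest epiF3 array lay 0.28 below the lowest wild-type array. The change was -0.68 with a standard error of 0.17, a 95% interval of -1.07 to -0.28 and an adjusted p of 0.165 in limma, and -0.54 without epiF3 array 3. PMEPCRF was at 8.08, 7.96 and 7.89 on wild-type arrays 1 to 3 and 8.01, 7.95 and 7.42 on epiF3 arrays 1 to 3. Array 3 of epiF3 was lower than the other 5 arrays, which lay within 0.20 of each other, and the change of -0.18 was 0.0040 without it.

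PMEAMT, the lipid enzyme that shares the first letters, was at 9.67, 8.77 and 9.12 on wild-type arrays 1 to 3 and 9.34, 9.27 and 9.39 on epiF3 arrays 1 to 3. Its epiF3 arrays lay within the wild-type range, and its change was 0.15 (95% interval -0.36 to 0.65).

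**Figure D3:**
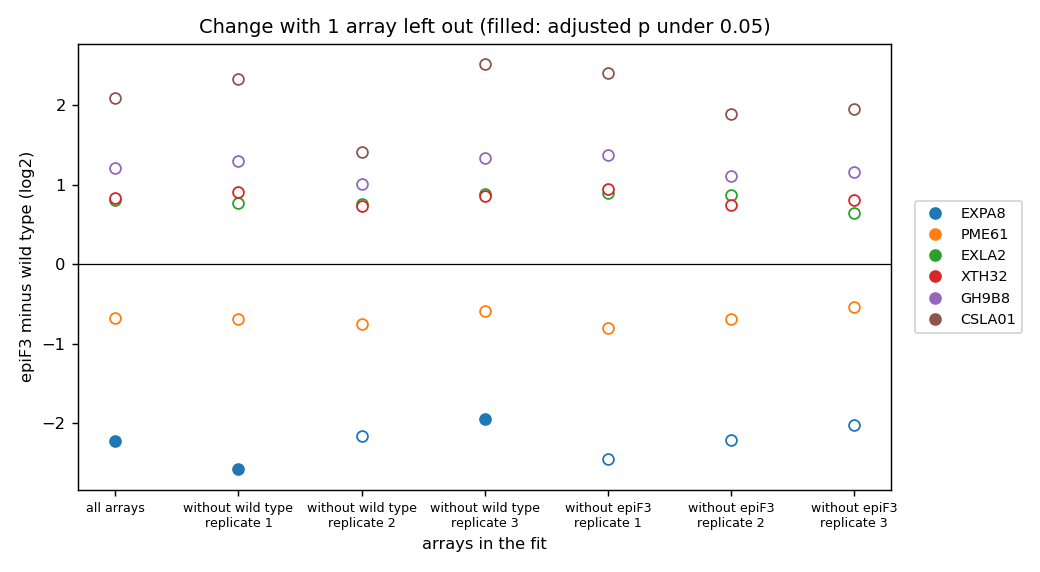
Change on the log2 scale of 6 genes in the fit with all arrays and in the 6 fits that leave out 1 array, with filled points for an adjusted limma p under 0.05. The sign of each gene is the same in all 7 fits; EXPA8 is filled in 3 of them, and CSLA01 drops to 1.41 without wild-type array 2.

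Across families, 35 of 52 changes were positive and 17 negative, with a median of 0.20. Over all 22746 probe sets, 12664 were positive, with a median of 0.030. The members' median was 0.15 without epiF3 array 3, 0.11 with the hybridization control covariate, 0.14 after cyclic loess or quantile normalization and 0.27 after median centring. Changes of at least 0.5 in size were found for 9 members (17.3%), against 9.06% of all probe sets, and of at least 1 (2-fold) for 3, namely EXPA8, CSLA01 and GH9B8 (5.77%, against 2.38% of all probe sets). The median within-group SD of members was 0.16 in wild type and 0.24 in epiF3, against 0.15 and 0.18 over all probe sets. The 52 genes were chosen by name and share ancestry within families, so they are not independent points and no test was made over them.

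**Figure D4:**
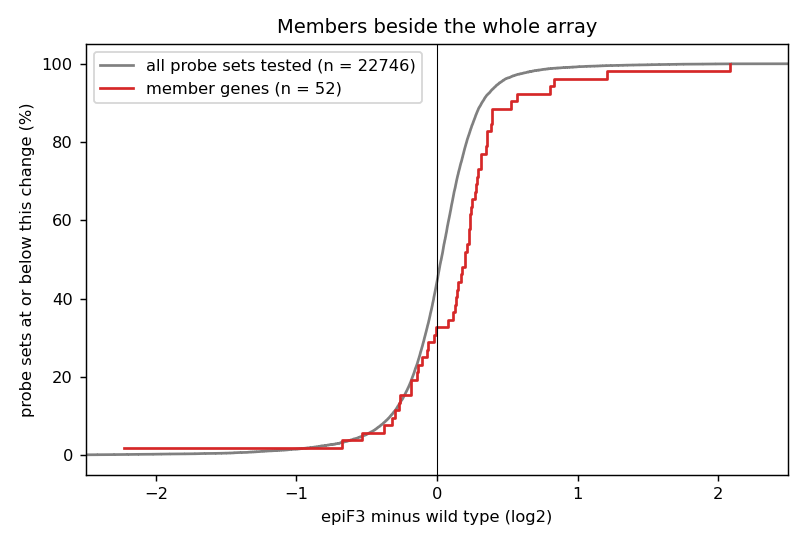
Share of probe sets at or below each change (epiF3 minus wild type, log2) for the 52 member genes (red) and all 22746 probe sets (grey). The median is 0.20 for members and 0.030 for all probe sets; the axis is limited to changes of up to 2.5 in size, which holds all members.

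Some members lie in the same stretch of a chromosome. CSLA03 (-0.38), GH9B6 (0.18) and GH9B5 (0.39) lie on chromosome 1 between AT1G19450 and AT1G23960, and EXLA1 (-0.26), EXLA3 (-0.32) and GH9A4 (0.13) on chromosome 3 between AT3G43740 and AT3G47250. The bounds of these stretches came from earlier results of these same data, not from an outside source. They are not loci of members, and no test of position was made. Of these 6 members only EXLA1 and EXLA3 are adjacent genes, and none of the 6 was called.

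Genes of the same families that the annotation names by another symbol were few, and none was called. Their number was 5, of which 4 changes were positive (median 0.30). EXGT-A3, also named XTH27, was at 8.75, 9.05 and 8.63 on wild-type arrays 1 to 3 and 9.04, 9.04 and 9.01 on epiF3 arrays 1 to 3, and its epiF3 arrays lay within the wild-type range. ATPMEPCRB, also named PME41, was at 3.93, 4.75 and 2.67 on wild-type arrays 1 to 3 and 3.01, 3.05 and 2.82 on epiF3 arrays 1 to 3. Its wild-type arrays spread more widely than the groups differed (SD 1.04), and the change of -0.82 had an adjusted p of 0.573 in limma. ATCSLC08 had a change of 0.30, the PME39 gene AT4G02300 of 0.34 and the EXLB2 gene AT4G30380 of 0.43, the last near the floor on 5 arrays.

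Other wall genes were measured by name in 4 cases, and none was called. COB, a membrane-anchored protein needed for oriented cellulose deposition, averaged 8.90 ± 0.23 in wild type and 8.93 ± 0.057 in epiF3 (SD, n = 3 each), a change of 0.024. GUT2 (IRX10), a xylan synthesis enzyme, had a change of -0.054. The wall-sensing receptor kinases FER and THE1 had changes of -0.28 and 0.32, with adjusted limma p of 0.675 and 0.577. FER averaged 7.98 ± 0.44 in wild type and 7.71 ± 0.0097 in epiF3, with the spread in wild type coming from array 1. Genes of xyloglucan side chains, pectin synthesis, arabinogalactan proteins and secondary wall regulators had no probe set under a listed name, and are not analysed here. Genes of pectin breakdown were looked for only by enzyme words in gene synonyms. That search found none and can miss genes on the array, so they are not analysed either.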

How the data were processed

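6 columns of log2 values, 1 per array, were used as the authors deposited them; per the submitters' processing notes they were made with RMA and the affy package, with no versions. How background was corrected and probe sets defined is not given in the sources used here. From the values, the log2 scale was inferred. The table held 64 array controls, left out, and 22746 probe sets. Genes came from GEO's platform annotation (14016 probe sets listed, 13513 with 1 gene, 13436 of these matched to RefSeq TAIR10.1, used for names and gene order only). No sequences were used. limma 3.58.1 in R 4.3.3 (lmFit, eBayes, two-sided, no block) compared epiF3 with wild type, with Benjamini-Hochberg adjustment over 22746 probe sets. The same fit was also run on simulated arrays with added changes. Those arrays had equal spread, so that run cannot speak to the outlying epiF3 array 3. Tables were made with Python 3.11.15 and pandas 2.3.3, figures with matplotlib 3.10.9. Depth does not apply to arrays; their number limits the precision.

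The members and lists were chosen with earlier results of these data known. Values on every array were given for EXPA8 and EXLA2, each called member, the smallest p and the highest mean signal in each family, and the 2 largest changes in each direction. Values of other members were added after they were seen. Alternatives were median centring, cyclic loess, quantile normalization, leaving out the dimmest 40%, variance moderation with a trend, made robust or left out, weighting of arrays, a block for the replicate number, a covariate for the hybridization controls, leaving out each array, matching by synonym and all probe sets of a gene.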

Additional observations from a re-analysis of the deposited data

Results flagged for a closer look

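Transcripts added as hybridization controls lay outside the comparison of plant genes. Their mean was 9.02 ± 1.31 on epiF3 arrays and 7.62 ± 0.56 on wild-type arrays (SD, n = 3 each), a difference of 1.41 on the log2 scale, with the epiF3 mean above every wild-type array. Array 3 of epiF3, at 10.5, carries much of this: without it the difference was 0.656, and epiF3 arrays 1 and 2 (8.19 and 8.36) lay close to wild-type array 3 (8.21). Their part in the members' changes was not tested beyond the fit with their level as a covariate.

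Probe sets that name several genes of these families stayed outside the list of members, and the epiF3 mean of 3 of them lay above every wild-type array. The probe set for EXPA22 and EXP26 had a change of 0.398 (1.67, 1.67 and 1.94 on wild-type arrays 1 to 3 and 2.16, 1.87 and 2.44 on epiF3 arrays 1 to 3), and lay near the floor on all 6 arrays. The probe set for EXPA23 and EXPA25 had a change of 0.22 and was near the floor on 5 arrays. The probe set for GH9B9 and GH9B10 had a change of 0.234 and was near the floor on all 6. None of these was called, with adjusted limma p of 0.465, 0.583 and 0.622.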

How the results depend on the processing

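Of 52 members 35 kept the sign of their change in every fit, and 17 changed it in at least 1. None of the 17 was called. Over all probe sets, with 61 calls higher and 75 lower in all, array weights gave 208 and 241. There were 6 and 18 with the hybridization control covariate, 0 and 2 with no moderation and 26 and 48 with the replicate block, and 11 to 115 higher and 22 to 287 lower with 1 array left out. Members called higher were 3 with array weights (EXLA2 at 0.72, GH9B8 and XTH32) and 0 to 1 with 1 array left out. Members called lower were 0 with the covariate, no moderation or the replicate block, and 0 to 1 with 1 array left out. In these fits EXPA8 had adjusted limma p of 0.346, 0.409 and 0.101. Deviations from the group means of arrays with the same number had correlations of -0.077, -0.042 and -0.045, and the numbers are not taken as pairs. Family medians moved by more than their spread between arrays as follows. With the covariate they were 0.13 for EXLA, 0.043 for XTH and -0.11 for CSL. Without the dimmest 40%, 26 members stayed, each with the same change as in the main fit. Family medians differed there only because dim members dropped out. They were -0.0031 for EXPB (EXPB1 and EXPB3 left) and 0.27 for EXLA (EXLA1 and EXLA2 left). For XTH the median was 0.54 (XTH16 and XTH32 left), and for GH9 it was 0.29 (GH9B7, GH9B8, GH9B13 and GH9C2 left). The GH9 median was 0.088 under cyclic loess. With 1 array left out the median ran from -0.33 to -0.0103 for EXLA and from 0.0751 to 0.26 for XTH. Changes of members that turned sign were, with the covariate, CSLD2 -0.11, EXLA1 0.13, EXPA15 0.0827, EXPA20 -0.0849, EXPA24 0.0959, EXPB5 0.18, GH9A3 -0.15, GH9B16 0.11, PMEPCRF 0.13, XTH20 -0.11, XTH21 -0.0913, XTH33 0.0221. With array weights they were EXPA24 0.0291, EXPB5 0.0383, GH9A3 -0.0295, GH9B12 -0.00473, GH9B16 0.0662, XTH21 -0.000354 and after median centring EXPA24 0.0513, EXPB5 0.0645, GH9B17 0.00905. Under cyclic loess it was XTH26 -0.0129, and under quantile normalization XTH26 -0.0127. With 1 array left out the changes that turned ran from -0.0242 to 0.38 for CSLD2, -0.31 to 0.0251 for EXPA15, -0.10 to 0.0489 for EXPA24, -0.0939 to 0.0898 for EXPB5, -0.0668 to 0.28 for GH9A3, -0.0197 to 0.52 for GH9B13, -0.35 to 0.0614 for GH9B16, -0.14 to 0.0268 for GH9B17, -0.0619 to 0.38 for PMEAMT, -0.29 to 0.0040 for PMEPCRF and -0.015 to 0.27 for XTH21. The covariate overlaps in part with the group, the weighted fit still holds epiF3 array 3, and other causes were not tested. Using all probe sets of a gene changed nothing, since each member has 1.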
